A study of Oryctolagus cuniculus with 6 samples.

Results

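The connexin genes GJA1, GJB2, GJB5, GJB6 and GJC1 were followed in limbal stem cells (LSCs) in primary culture from limbal explants of the rabbit, Oryctolagus cuniculus, and all 5 were found by symbol among the 22190 genes of the count table. RNA-seq had been performed on 3 libraries of a fresh group, whose explants were cultured without freezing, and on 3 libraries of a preconditioned group. The corneas of the preconditioned group were kept in liquid nitrogen for 1 week, in a cryomedium with serum and dimethyl sulfoxide to which the inflammatory cytokine IL-1β was added. No library received the freezing without the cytokine, so their effects cannot be told apart. The strain, age and sex of the rabbits, and whether each library came from its own animal, are not given in the sources used here, so that p values measure the spread between these libraries, which may be technical.

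Connexins are the subunits of gap junctions. They assemble into a hemichannel in the membrane, and hemichannels of adjoining cells dock to form a channel through which ions and small metabolites pass. In the ocular surface epithelium, GJA1 (Cx43) is known to be scarce in the basal cells of the limbus and plentiful in the cells that have left this niche, and it is therefore used as a negative marker of LSCs. GJB2 (Cx26) and GJB6 (Cx30) are partners that can join in mixed channels in skin and the inner ear. GJB5 (Cx31.1) is a connexin of stratified epithelium. GJC1 (Cx45) is best known from the heart and from smooth muscle.

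The libraries held 31952352 to 34327534 counts on genes, and levels are given as CPM, counts scaled to the size of each library with TMM factors, unless FPKM is named. In total 15029 genes passed the filter on low counts and were tested with edgeR's quasi-likelihood test. Genes were called when the Benjamini-Hochberg adjusted p was at most 0.05 and the absolute log2 fold change, preconditioned over fresh, was at least 1. Preconditioned replicate 1 stood apart from the other libraries of its group. On the first principal component it lay at 8.13, whereas the other preconditioned libraries lay at 58.3 and 70.4 and the fresh libraries between −53.1 and −41.1. Values of the connexins are therefore given with and without it. In bulk RNA, fewer cells of a type and less RNA per cell cannot be told apart.

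The labelled cell type was compared with marker genes. KRT5, the basal keratin of stratified epithelium, was at 7333 to 11734 CPM in the 6 libraries. PAX6, the transcription factor of the eye field, was at 174 to 217 CPM in the fresh libraries and at 203, 376 and 459 CPM in preconditioned replicates 1, 2 and 3 (log2 fold change 0.81, edgeR adjusted p = 0.11). It was called without preconditioned replicate 1 (log2 fold change 1.07, edgeR adjusted p = 0.0060), as were 9.99% of all tested genes. The other adhesion genes of the list differed in sign. EPCAM and ITGB4 lay higher in every preconditioned library than in any fresh library (log2 fold changes 0.50 and 0.63, edgeR adjusted p = 0.060 and 0.071), CDH3 lay lower in every one (log2 fold change −0.65, edgeR adjusted p = 0.27), and CDH1 had −0.07 (edgeR adjusted p = 0.77). TP63, the marker of epithelial progenitors, was at 226 to 246 CPM in the fresh libraries and at 112 to 183 CPM in the preconditioned libraries (log2 fold change −0.77, standard error 0.19, edgeR adjusted p = 0.059). KRT14, KRT12, ABCG2 and ABCB5 were not analysed here. GPHA2, a limbal progenitor marker, did not pass the filter. It was at 0.406, 0.0562 and 1.53 CPM in the fresh libraries and had no count in the preconditioned libraries.

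GJA1 had the highest FPKM of all connexins in 4 of the 6 libraries and GJB2 in the others, and the level of GJA1 did not differ detectably between the groups. It was expressed at 1226, 872 and 1738 CPM in fresh replicates 1 to 3 and at 1426, 2005 and 1407 CPM in preconditioned replicates 1 to 3. The groups overlapped, since fresh replicate 3 lay above 2 of the preconditioned libraries. The fresh mean was 1279 ± 436 CPM and the preconditioned mean 1613 ± 340 CPM (SD, n = 3 each). The log2 fold change was 0.33 (standard error 0.27, edgeR adjusted p = 0.43). The 95% confidence interval ran from −0.30 to 0.97 on the log2 scale, and so included lower as well as higher levels. The value was 0.41 without preconditioned replicate 1, 0.12 without fresh replicate 2, 0.15 without preconditioned replicate 2 and 0.62 without fresh replicate 3, and none of these passed the test.

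GJB6 was lower in each preconditioned library than in any fresh library, and the size of the difference varied among the preconditioned libraries. The fresh libraries held 95.5, 98.2 and 108 CPM. Preconditioned replicate 1 held 77.9 CPM, and replicates 2 and 3 held 12.8 and 9.61 CPM. These were 77.3%, 12.7% and 9.54% of the fresh mean. The fresh mean was 101 ± 6.85 CPM and the preconditioned mean 33.4 ± 38.5 CPM (SD, n = 3 each), with an SD above the mean itself, and the log2 fold change was −1.59 (standard error 0.77, 95% confidence interval −3.42 to 0.24, edgeR adjusted p = 0.21). Without preconditioned replicate 1, the log2 fold change was −3.18 (standard error 0.16, edgeR adjusted p = 0.0012), and the gene was called. In that fit 9.99% of tested genes were called, and 25.2% had an adjusted p of at most 0.05. The library left out had the highest GJB6 of its group, so that the difference had to grow. Without preconditioned replicate 2 or 3 the log2 fold change was −1.20 or −1.15 (edgeR adjusted p = 0.44 and 0.34), and GJB6 was not called.

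GJB2, the neighbour of GJB6 in the genome, was high in both groups and divided the preconditioned libraries in the same order. It was expressed at 504, 486 and 590 CPM in the fresh libraries and at 704, 371 and 229 CPM in preconditioned replicates 1, 2 and 3. Preconditioned replicate 1 thus lay above all 3 fresh libraries, and the other preconditioned libraries lay below all of them. The log2 fold change was −0.28 (standard error 0.38, 95% confidence interval −1.17 to 0.62, edgeR adjusted p = 0.65). It was −0.82 without preconditioned replicate 1 (standard error 0.22, edgeR adjusted p = 0.041, short of the fold change cutoff) and 0.03 without preconditioned replicate 3. The sign of the difference therefore rested on single libraries. How reads that fit more than 1 gene were counted is not given in the sources used here, and GJB2 and GJB6 code for similar proteins.

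GJB5 varied little within each group and was higher in the preconditioned group. Its level was 17.5, 15.9 and 16.5 CPM in the fresh libraries and 26.6, 28.2 and 32.3 CPM in the preconditioned libraries. All preconditioned libraries lay above all fresh libraries. The means were 16.6 ± 0.774 and 29.0 ± 2.94 CPM (SD, n = 3 each), a 1.74-fold difference. The log2 fold change of 0.80 (standard error 0.14, 95% confidence interval 0.48 to 1.12, edgeR adjusted p = 0.037) passed the cutoff on p and missed the cutoff on fold change. Its p ranked 209 among the 15029 genes. The adjusted p was 0.0080 without preconditioned replicate 1, but it was 0.084 to 0.14 when any other library was left out, and 0.098 with the replicate number as a block.

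GJC1 was scarcely detected. It had 0, 6 and 2 counts in the fresh libraries and 3, 6 and 6 counts in the preconditioned libraries, did not pass the filter and was not tested. A difference between the groups was not detectable at these counts. Fold changes are given only for the fits without the filter, further below. The length used for its FPKM was 1191 bases, which is also the whole span of the gene in the RefSeq table of rabbit genes, whereas the other 4 members had lengths of 1342 to 3119 bases.

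**Figure D1:**
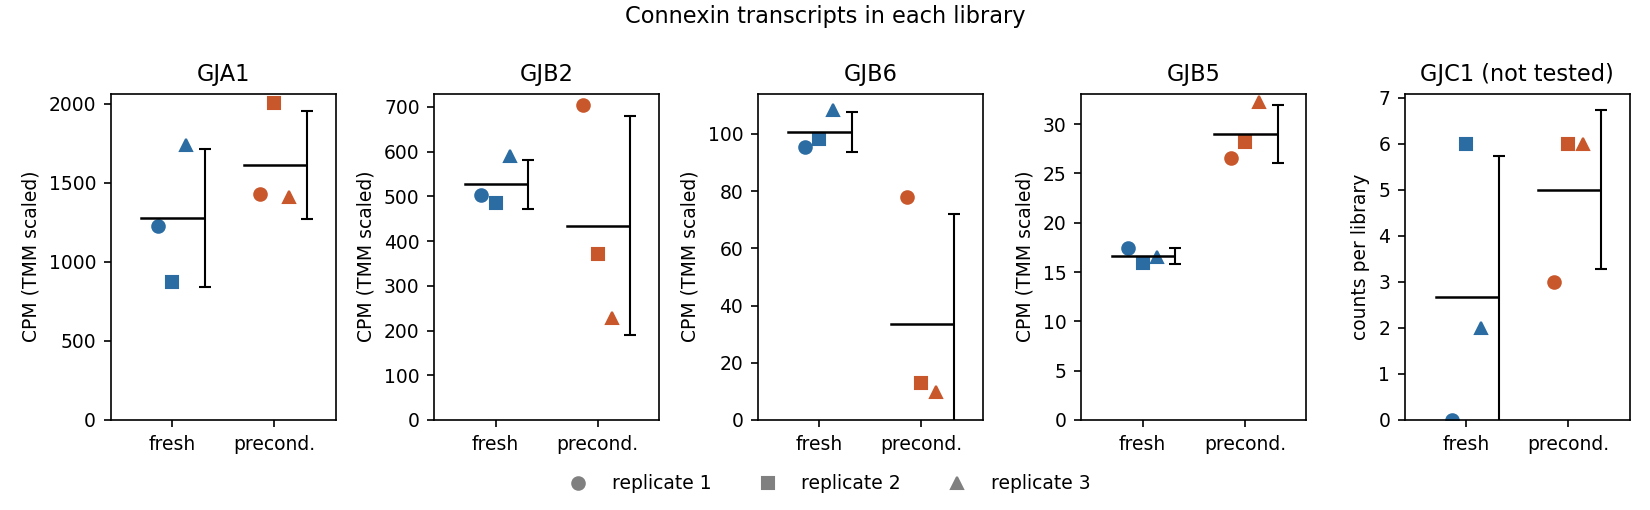
CPM of GJA1, GJB2, GJB6 and GJB5, and counts of GJC1, in the 3 fresh (blue) and 3 preconditioned (orange) libraries, with the mean (line) and SD (bar, cut at 0). GJB5 is higher in every preconditioned library, GJB6 is near the fresh level in preconditioned replicate 1 and at 12.8 and 9.61 CPM in the other preconditioned libraries, and the groups overlap for GJA1, GJB2 and GJC1.

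Of the 4 members that were tested, none was called, where 2.29% of all tested genes were. One of them, GJB5, had an adjusted p of at most 0.05 regardless of fold change, where 5.08% of all tested genes did, and GJB5 was also the only member with an unadjusted p under 0.05, where 30.6% of all tested genes (4596) had one. Of the 4 members, GJB5 and GJB6 had groups without overlap, as did 36.7% of all tested genes. With the DESeq2 Wald test, which calls 7.78% of genes with an adjusted p, none of the members was called either. Its adjusted p was 7.0e-05 for GJB5 (log2 fold change 0.80) and 0.21 for GJB6 (log2 fold change −1.59).

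Between genes, levels were compared in FPKM, which divides by gene length. In the fresh group GJA1 stood at 435 ± 150 FPKM and GJB2 at 384 ± 42.3 FPKM (SD, n = 3 each), so that the leading pair did not differ beyond their spread. GJB6 followed at 45.5 ± 3.32 FPKM, GJB5 at 13.1 ± 0.570 FPKM and GJC1 at 0.0664 ± 0.0766 FPKM (SD, n = 3 each). In the preconditioned group the order began with GJA1 at 486 ± 88.2 FPKM and GJB2 at 284 ± 165 FPKM (SD, n = 3 each), whose ranges overlapped. GJB5 at 20.4 ± 2.15 FPKM and GJB6 at 13.6 ± 15.9 FPKM came next and did not differ beyond their spread, although GJB6 lay below GJB5 in preconditioned replicates 2 and 3 and above it in replicate 1, and GJC1 was last at 0.126 ± 0.0456 FPKM (SD, n = 3 each). GJA1 ranked between 122 and 239 among all 22190 genes by FPKM. GJB6 ranked 1621 to 1833 in the fresh libraries, 2345 in preconditioned replicate 1, and 7253 and 7951 in preconditioned replicates 2 and 3.

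The make-up of the connexin transcripts was described by the share of each member in their summed FPKM. GJA1 made up 49.6%, 41.9% and 54.5% in the fresh libraries and 45.95%, 69.5% and 70.8% in preconditioned replicates 1, 2 and 3. GJB2 made up 43.7%, 50.1% and 39.7% in the fresh libraries and 48.7%, 27.6% and 24.7% in the preconditioned libraries. Preconditioned replicate 1 thus lay within the fresh range for both genes, and the other preconditioned libraries lay outside it. The mean share of GJA1 was 13.5 percentage points higher in the preconditioned group, and 21.5 points higher without preconditioned replicate 1. For GJB2 the difference was −10.8 points, and −18.3 points without that library.

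The share of GJB6 was 5.13%, 6.26% and 4.52% in the fresh libraries and 3.33%, 0.588% and 0.643% in the preconditioned libraries. The ratio of GJB2 to GJB6 in FPKM was 7.998 to 8.79 in the fresh libraries and 14.6, 46.9 and 38.5 in preconditioned replicates 1, 2 and 3, so that GJB6 was lower relative to GJB2 in each preconditioned library, replicate 1 included. The ratio of GJA1 to GJB2 was 0.836 to 1.37 in the fresh libraries, 0.943 in preconditioned replicate 1, and 2.52 and 2.86 in the other preconditioned libraries. The summed FPKM of the 5 members was 708 to 1089 in the fresh libraries and 606 to 960 in the preconditioned libraries, and these ranges overlapped.

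**Figure D2:**
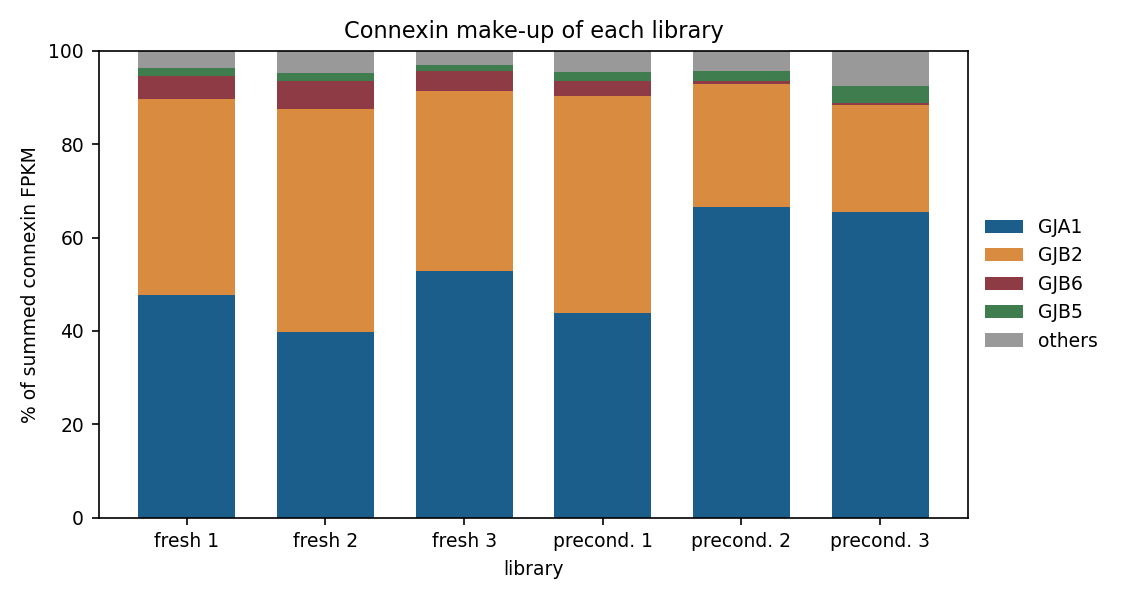
Share of each connexin in the summed FPKM of all connexin genes of the table (vertical axis, %), 1 bar for each library, with the connexins other than GJA1, GJB2, GJB5 and GJB6 joined in grey. GJA1 and GJB2 fill most of every bar, the band of GJB6 nearly vanishes in preconditioned replicates 2 and 3, and preconditioned replicate 1 resembles the fresh libraries.

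The other connexins and the pannexins were taken from all rows of the table with such a symbol or description. Together with the members these were 18 rows, of which 10 were tested. The 8 rows without a test, GJC1 among them, had at most 10 counts in any library.

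GJB2 and GJB6 are adjacent in the RefSeq order of rabbit genes (assembly mOryCun1.1), and the gene on the far side of GJB6 is CRYL1, which codes for a crystallin-like enzyme and was looked up after the values of GJB6 had been seen. CRYL1 had a fresh mean of 35.5 ± 4.47 CPM and a preconditioned mean of 33.6 ± 4.90 CPM (SD, n = 3 each). Its log2 fold change was −0.08 (edgeR adjusted p = 0.77).

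GJA9 and GJA10 were tested at levels of at most 1.36 CPM in any library. Their log2 fold changes were −1.32 for GJA9 (edgeR adjusted p = 0.17) and −0.64 for GJA10 (edgeR adjusted p = 0.38). PANX1, whose protein forms ATP-releasing channels that do not dock into gap junctions, was at 14.4, 12.5 and 11.8 CPM in the fresh libraries and at 10.1, 9.40 and 7.24 CPM in the preconditioned libraries. The groups did not overlap, and the log2 fold change was −0.53 (standard error 0.20, edgeR adjusted p = 0.13).

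**Figure D3:**
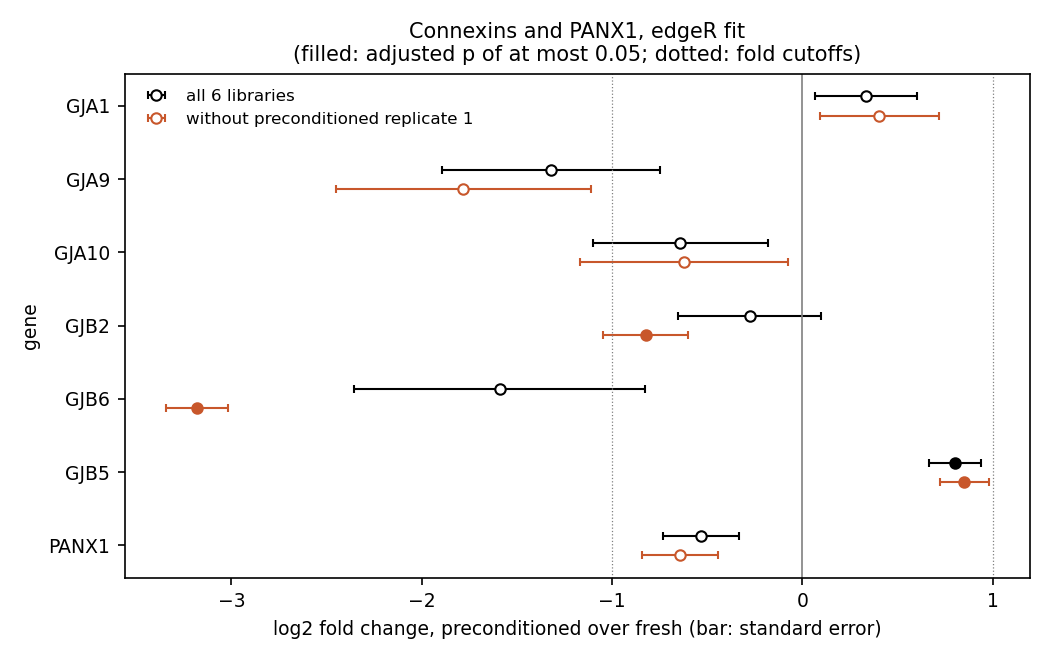
Log2 fold change (horizontal axis) of 7 tested connexin and pannexin genes with its standard error, from all 6 libraries (black) and without preconditioned replicate 1 (orange), filled where the adjusted p was at most 0.05. GJB5 is filled in both fits, and GJB6 moves from −1.59 to −3.18 and GJB2 from −0.28 to −0.82 when that library is left out.

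**Figure D4:**
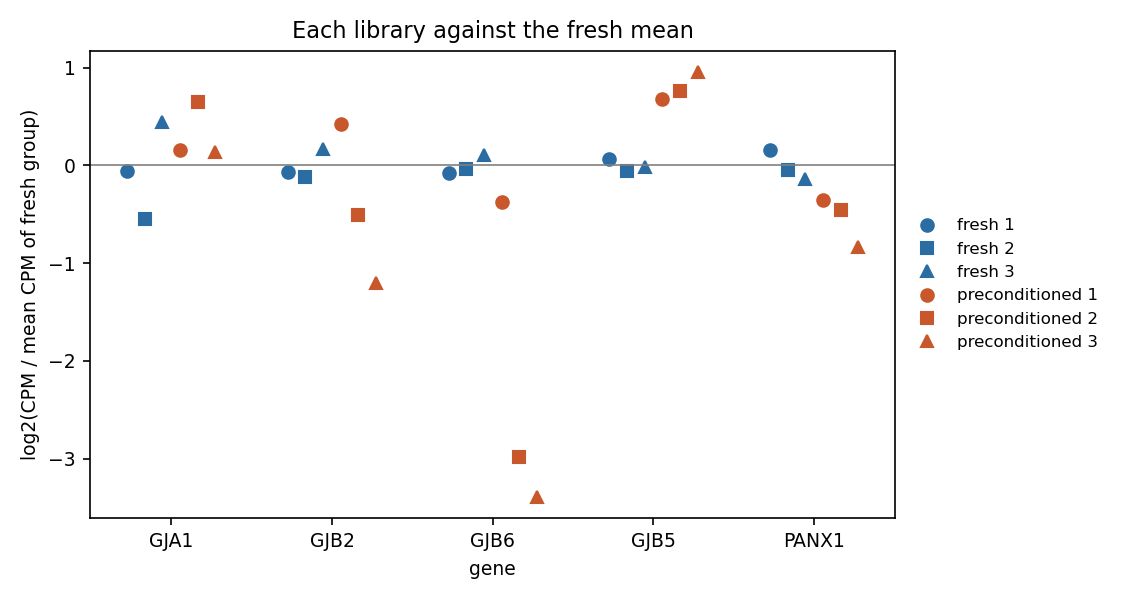
Log2 ratio of each library's CPM to the fresh mean (vertical axis) for the 4 tested members and PANX1. Preconditioned replicate 1 lies above the fresh libraries for GJB2 and close below them for GJB6, whereas all 3 preconditioned libraries lie together above the fresh libraries for GJB5.

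Genes whose proteins bind connexins or carry, anchor and degrade them were examined as a list of 24, all of which were tested. None was called by edgeR, and 9 had an unadjusted p under 0.05 (30.6% of all tested genes did). DESeq2, which called 7.78% of genes, called 1 of the 24. This was the matricellular protein gene CCN3 (log2 fold change 1.58, DESeq2 adjusted p = 0.035), which is named for this call alone. The log2 fold change was positive for 15 and negative for 9 of them, with a median of 0.17, beside a median of 0.01 and a positive value in 50.5% of all tested genes. STAMBP, a deubiquitinase of the endosome, was at 28.8 to 35.0 and at 36.4 to 53.6 CPM (log2 fold change 0.56, edgeR adjusted p = 0.086), and UBQLN4, which shuttles proteins to the proteasome, was at 40.8 to 45.9 and at 29.8 to 35.2 CPM (log2 fold change −0.43, edgeR adjusted p = 0.070). The groups of both genes did not overlap, and neither passed the test.

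Of the 14 kinases and phosphatases known to act on connexins, none was called by edgeR or DESeq2, and 3 had an unadjusted p under 0.05, where 30.6% of all tested genes did. Their median log2 fold change was −0.03. MAPK3, which phosphorylates GJA1, was at 92.3 to 115 CPM in the fresh and 120 to 163 CPM in the preconditioned libraries (log2 fold change 0.47, edgeR adjusted p = 0.093). CSNK1D, which phosphorylates GJA1 as well, had a log2 fold change of −0.27 (edgeR adjusted p = 0.14). Without preconditioned replicate 1, when 9.99% of all tested genes were called, so were MAPK7 and CDK1, with log2 fold changes of −1.11 and −1.79 (edgeR adjusted p = 0.017 and 0.0040).

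Among 9 transcription factors known from connexin promoters, 7 were tested. None was called by either tool, 1 had an unadjusted p under 0.05 (30.6% of all tested genes did), and the median log2 fold change was 0.01. SP3 was at 84.6 to 97.0 CPM in the fresh and 105 to 108 CPM in the preconditioned libraries (log2 fold change 0.24, edgeR adjusted p = 0.15). FOS had a log2 fold change of 0.37 (edgeR adjusted p = 0.21), and TBX2, a repressor of GJA1, one of −0.80 at no more than 3.91 CPM (edgeR adjusted p = 0.47).

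Stromal cells of the limbus also express GJA1, and their markers were summed for each library. The 13 stromal fibroblast markers summed to 553 to 1206 CPM in the fresh libraries and to 1358 to 2416 CPM in the preconditioned libraries. Without COL1A1, a sum taken after the data were seen, the ranges overlapped, at 496 to 1097 CPM in the fresh and 853 to 1724 CPM in the preconditioned libraries. None of the 13 was at 0, and 9 of the 13 had a positive log2 fold change, as had 50.5% of all tested genes. By edgeR only COL1A1, the main fibrillar collagen, was called, beside 2.29% of all tested genes (DESeq2 called COL6A3 and FAP as well, beside 7.78% of genes), at 56.8 to 108 CPM in the fresh and 504 to 692 CPM in the preconditioned libraries (log2 fold change 2.66, edgeR adjusted p = 0.015). VIM, COL1A2 and COL3A1 had log2 fold changes of 0.43, 1.11 and 0.85 with overlapping groups (edgeR adjusted p = 0.50, 0.17 and 0.37), and LUM, DCN and KERA, of the corneal stroma, had 0.44, −0.13 and −1.27 (edgeR adjusted p = 0.64, 0.92 and 0.22). Preconditioned replicate 2 had the highest sum of these markers and the highest GJA1. Fresh replicate 3 had the next highest GJA1, with a sum of all 13 markers below those of all preconditioned libraries. Without COL1A1 the sum of fresh replicate 3 was 1097 CPM, above the 898 and 853 CPM of preconditioned replicates 1 and 3. The part of these cells in the level of GJA1 was not tested.

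Markers of epithelial maturation were compared because GJA1 and the beta connexins are expressed in maturing layers. Of the 10 markers of corneal differentiation, 7 were tested and 1 was called, where 2.29% of all tested genes were. The log2 fold change was positive for 3 of the 7 and negative for 4, where 50.5% of all tested genes had a positive one. TKT, the transketolase that is abundant in corneal epithelium, was lower in the preconditioned group, at 1045 to 1473 CPM in the fresh and 467 to 792 CPM in the preconditioned libraries (log2 fold change −1.06, standard error 0.23, edgeR adjusted p = 0.048). KRT3, the keratin of differentiated corneal cells, was at 409 to 2654 CPM in the fresh and 239 to 800 CPM in the preconditioned libraries, which overlapped (log2 fold change −1.21, edgeR adjusted p = 0.30). CLDN7 had a log2 fold change of 0.57 (edgeR adjusted p = 0.19) and IVL, a precursor of the cornified envelope, one of −1.18 (edgeR adjusted p = 0.40). IVL was at 149 CPM in preconditioned replicate 1 and at 49.3 and 9.51 CPM in preconditioned replicates 2 and 3, the same order as GJB2 and GJB6. Of the other tested markers of this list, KRTDAP, DSG1 and SPRR3 had this order, and KRT3, TKT and CLDN7 did not.

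GJB2 and GJB6 are known to increase in hyperproliferative epidermis. Of 8 genes of this state, 5 were tested, and all 5 had a negative log2 fold change, where 50.5% of all tested genes had a positive one. None was called by edgeR. IL36G had an unadjusted p under 0.05, as had 30.6% of all tested genes, and was called by DESeq2, as were 7.78% of genes. S100A9, S100A8 and KRT16 had log2 fold changes of −0.76, −0.55 and −0.81 (edgeR adjusted p = 0.22, 0.42 and 0.31). Of the limbal progenitor markers, 6 of 12 were tested. None was called by edgeR, 3 had an unadjusted p under 0.05 (30.6% of all tested genes did), and DESeq2, which applies its own filter, called 1, GPHA2 (DESeq2 adjusted p = 0.0023). TP63 was called without preconditioned replicate 1 (log2 fold change −1.03, edgeR adjusted p = 0.0040), as were 9.99% of all tested genes. CEBPD, linked to quiescence of LSCs, was at 192 to 214 CPM in the fresh and 123 to 158 CPM in the preconditioned libraries (log2 fold change −0.52, edgeR adjusted p = 0.054), and TCF4 had a log2 fold change of −0.54 (edgeR adjusted p = 0.25).

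The summed levels of the melanocyte, endothelial, conjunctival and immune markers overlapped between the groups, and edgeR called none of their genes with all 6 libraries. The 6 melanocyte markers summed to at most 6.38 CPM and the 5 endothelial markers to at most 13.04 CPM in any library. No gene of either list was at 0 in all libraries, but TYR, PMEL and MLANA were at 0.0820 CPM or less in each library. The 6 immune markers summed to 103 to 136 CPM in the fresh libraries and to 125, 317 and 292 CPM in preconditioned replicates 1, 2 and 3, most of it CD68, a lysosomal protein gene that is not restricted to macrophages, while PTPRC, the pan-leukocyte marker, was at most 1.502 CPM. CD68 had a log2 fold change of 1.14 and was called by DESeq2 (adjusted p = 0.0095), as were 7.78% of genes. Without preconditioned replicate 1, when 9.99% of all tested genes were called, edgeR called CD68 as well (log2 fold change 1.45, adjusted p = 0.0043). TYRP1, a melanocyte marker at 2.60 CPM or less, was called in both of these fits (log2 fold changes 2.61 and 3.13), and PECAM1, an endothelial marker, in the edgeR fit without that library (log2 fold change 1.77). MITF was lower and CDH5 higher in every preconditioned library than in any fresh library, MITF at 2.19 to 3.69 against 4.22 to 5.44 CPM (edgeR adjusted p = 0.20) and CDH5 untested at 0.224 CPM or less. The part of such cells in the connexin levels was not tested. The 4 conjunctival markers that were measured summed to 2655 to 4690 CPM in the fresh and 1910 to 4663 CPM in the preconditioned libraries, mostly KRT19 and KRT7. KRT13, another of them, was at 61.0 CPM in preconditioned replicate 1 and at 3.92 to 20.6 CPM in the other libraries.

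**Figure D5:**
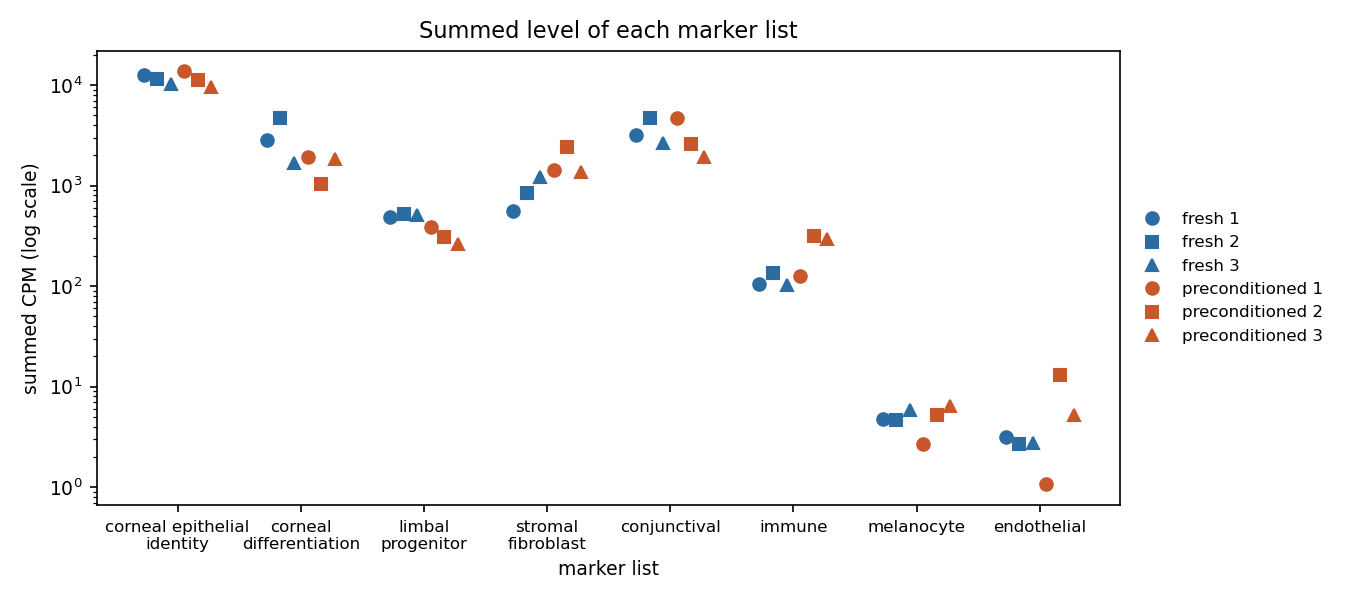
Summed CPM (log scale) of 8 marker lists in each library. The stromal list is higher in all preconditioned libraries, which holds only with COL1A1 in the sum, the limbal progenitor list is lower in all of them, and the melanocyte and endothelial lists lie at or under 13.04 CPM throughout.

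The genes most like each tested member were found by Pearson's r of log2 CPM over the 6 libraries. With 6 points and 15029 genes such values describe the libraries only, and 1550 genes reached an r of 0.9 with GJB6, 1127 with GJB5, 466 with GJB2 and 107 with GJA1. Among the nearest genes with a symbol were DRAM2 (0.9746) and LEMD3 (0.972) for GJA1, and CHMP4A (0.998), NUTF2 (0.997) and RBKS (0.994) for GJB2. For GJB5 they were TINF2 (0.998), LEMD2 (0.996) and RPS21 (0.995), and for GJB6 they were PDSS1 (0.9995), HNRNPU (0.9994) and GTF2H2C (0.9986). Among the members themselves, r was 0.87 between GJB2 and GJB6, −0.85 between GJB5 and GJB6, −0.57 between GJB2 and GJB5, and −0.45 to 0.48 between GJA1 and each of the others.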

How the data were processed

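Raw read counts of each gene were deposited, made by the authors with hisat2 alignment and htseq-count. The deposited FPKM equal these counts scaled by library total and by 1 length per gene. The genome build, the annotation and the strand setting are not given in the sources used here. Samples were grouped by the sample records. The main test was the robust quasi-likelihood test of edgeR 4.0.16 (R 4.3.3) after filterByExpr and TMM scaling, in a model of condition alone, with Benjamini-Hochberg adjustment over all tested genes. The study's methods use DESeq2, which was an alternative here (1.42.0), as were limma 3.58.1 on log2(FPKM + 1) and log2(FPKM + 0.1), other scalings and filters, the replicate number as a block, and leaving out each library. Standard errors were derived from the F statistic. CPM are TMM scaled, and log2 CPM for r and principal components used a prior count of 2. The fits were tested on simulated counts. Depth was similar in all libraries, so that counting error matters mainly for genes with few counts. RefSeq gene order (assembly mOryCun1.1) was taken from the start positions of the genes, and all 18 connexin and pannexin genes were matched by gene ID.

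The members and lists were chosen with earlier results of these data known. Named by rule were the members, all other connexins and pannexins, the called genes or the 3 lowest p values of each gap junction list, the called genes and up to 3 more by mean CPM of the progenitor, differentiation, hyperproliferative and stromal lists, and the 3 genes most like each member. Some genes that the rule names are not reported here. The genes named beyond this rule (KRT5, PAX6, EPCAM, ITGB4, CDH1, CDH3, KERA, GPHA2, COL6A3, FAP, LUM, DCN, CRYL1, CCN3, MAPK7, CDK1, CD68, PTPRC, TYRP1, PECAM1, MITF, CDH5, TYR, PMEL, MLANA, KRT19, KRT7, KRT13, IL36G, KRTDAP, DSG1, SPRR3) were chosen after their values were seen.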

Additional observations from a re-analysis of the deposited data

How the results depend on the processing

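The log2 fold change of GJA1 stayed positive (0.12 to 0.62) and that of GJB5 stayed between 0.59 and 0.85 under all 14 alternatives, and neither gene was called under any of them. The adjusted p of GJB5 was between 7.0e-05 and 0.14. Leaving out single libraries, GJB6 had log2 fold changes of −3.18 to −1.15 and was called only without preconditioned replicate 1, and GJB2 had −0.82 to 0.03, with the positive value (0.032) without preconditioned replicate 3. Under limma on log2(FPKM + 0.1), GJB6 had −2.39 (adjusted p = 0.076). GJC1 could be fitted only without the filter on low counts, with a log2 fold change of 1.05 by edgeR (adjusted p = 0.56) and 1.096 by DESeq2, which gave no adjusted p. The number of called genes was 344, and it was 1190 with DESeq2, 564 with library size alone (142 higher and 422 lower, in place of 163 and 181, with a median over all genes of −0.16 on the log2 scale), 590 with limma on log2(FPKM + 0.1) (141 higher and 449 lower), 763 by adjusted p alone (433 higher and 330 lower), and 14 to 1546 with 1 library left out (14 without fresh replicate 2, 19 without fresh replicate 1, 47 without fresh replicate 3, 16 without preconditioned replicate 2 and 72 without preconditioned replicate 3), the highest without preconditioned replicate 1. With limma on log2(FPKM + 1) it was 283 (77 higher and 206 lower). Against that shift of all genes, GJA1 with library size alone had 0.16 and GJB5 0.63. Of the partner genes, DESeq2 called 1, and 0 to 1 were called when each library was left out. Of the kinases and phosphatases, 0 to 2 were called when each library was left out. The shares of the members in summed FPKM moved by less than the spread between libraries under all their alternatives.

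In a fit with a replicate block, 30 genes were called and none of the members, with log2 fold changes of 0.37 for GJA1, −0.42 for GJB2, 0.80 for GJB5 and −2.29 for GJB6 (adjusted p = 0.18). As a check of the pairing, deviations from the group means had a correlation of −0.083 on average between libraries that share a number, and 0 of 6 libraries correlated best with their own number, so that the numbers were not taken as pairs.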

Other observations

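Among the listed genes other than connexins, IL36G, KRTDAP and CDK1 divided the preconditioned libraries in the order seen for GJB6, with replicate 1 nearest to the fresh group. IVL, KRT16, TP63 and CDH3 had this order as well. KRT3, TKT, S100A8 and S100A9 did not, and CLDN7 rose from preconditioned replicate 1 to 3. The share of all tested genes with this order was not counted. Over all tested genes, 1550 had an r of at least 0.9 with GJB6. IL36G, an epithelial cytokine of the IL-1 family, was at 44.8, 58.7 and 80.3 CPM in the fresh libraries and at 23.1, 6.81 and 2.60 CPM in preconditioned replicates 1, 2 and 3 (log2 fold change −2.496, standard error 0.74, edgeR adjusted p = 0.083). KRTDAP, a gene of differentiating keratinocytes, was at 3.94 to 6.44 CPM in the fresh libraries and at 3.62, 1.15 and 0.428 CPM in the preconditioned libraries (log2 fold change −1.54, edgeR adjusted p = 0.19). CDK1, the mitotic kinase, was at 51.5 to 74.9 CPM in the fresh libraries and at 54.2, 18.6 and 16.9 CPM in the preconditioned libraries (log2 fold change −1.03, edgeR adjusted p = 0.18). Without preconditioned replicate 1, when 9.99% of all tested genes were called, so were all 3 of these, with log2 fold changes of −3.71, −2.68 and −1.79 (edgeR adjusted p = 0.011, 0.015 and 0.0040). They were picked after their values were seen, for the position of that library, so that leaving it out had to enlarge their differences.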
